A study of Mus musculus with 4 samples.

Results

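Genes of meiotic recombination and chromosome synapsis were followed in the messenger RNA of round spermatids, the haploid cells that leave meiosis. Members were taken by symbol: rows of the deposited table whose gene name equals one of 34 listed symbols, which gave 32 genes of the 25965 in the table. Rec114 and Meiob are listed at their positions under the older symbols 2410076I21Rik and 4930528F23Rik. They were not counted among the 32, and their values are given with their roles. The series holds 4 libraries made with the Smart-seq2 full-length protocol from round spermatids sorted by flow cytometry from testes of mice on the ICR background. The first group holds 2 libraries with the genotype label Wfdc15a-/- (KO-labelled libraries 1 and 2). The second holds 2 libraries of the genotype Wfdc15a+/- (heterozygous libraries 1 and 2), so mice of this group carry an altered allele too. The labels give no age and no altered part of the gene, and do not say whether each replicate was a different animal. The p-values therefore measure only how far these samples spread, and that spread may be technical. Values of the 2 libraries of a genotype are given below in the order 1 and 2.

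In meiotic prophase, programmed DNA breaks are made and repaired from the homologous chromosome while the homologues are zipped together by the synaptonemal complex. Breaks are placed and cut, their ends are resected and invade the homologue with the help of recombinases, and a minority of the joint molecules mature into crossovers that hold the homologues together until they part. Cohesins and HORMA-domain proteins organise the chromosome axes on which this happens. The proteins act in spermatocytes, before the round spermatid stage.

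The recovered library totals were 21160061 and 11268909 reads in the KO-labelled libraries, against 5774112 and 33853604 reads in the heterozygous libraries. Values are RPM, reads scaled to a common library total, and 1 read was worth between 0.0295 RPM in heterozygous library 2 and 0.173 RPM in heterozygous library 1. All 16 round spermatid markers on the list were read in every library, summing to 6836 and 6823 RPM in the KO-labelled libraries, against 6278 and 6416 RPM in the heterozygous libraries. Wfdc15a, the altered gene, was at 82.6 and 59.5 RPM in the KO-labelled libraries, against 121 and 85.2 RPM in the heterozygous libraries. Its log2 difference was -0.53 (SE 0.29, limma adjusted p = 0.647), and an exact permutation test gave p = 0.333 (two-sided), the smallest p that 2 against 2 libraries allow. A sum over the gene does not show whether part of it is missing, so the genotypes are given as labelled.

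The structural genes of synapsis and cohesion were abundant in these cells, and Prdm9, Rad21l and 4 other members lay under 1 RPM per kb. Levels were compared between genes per kb of summed exon length. Syce1, which encodes a protein of the synaptonemal complex central element, had the highest level, 277 RPM per kb in KO-labelled and 291 RPM per kb in heterozygous libraries on average, at or above 99.0% of the 14018 tested genes with an annotated length. Psmc3ip, the partner of the recombinase DMC1 also known as HOP2, averaged 106 and 134 RPM per kb in KO-labelled and heterozygous libraries. Stag3, the meiotic cohesin subunit, averaged 116 and 111 RPM per kb in the same order. At the other end lay Prdm9, the methyltransferase that marks recombination hotspots, at 0.189 RPM per kb in KO-labelled and 0.345 RPM per kb in heterozygous libraries. Of the 32 genes, 14 averaged 10 RPM per kb or more, 12 lay between 1 and 10, and 6 lay under 1 (Prdm9 and Rad21l among them). The 14 comprise all synaptonemal complex genes except Tex12, the cohesin genes Stag3, Smc1b and Rec8, the axis gene Hormad1, Psmc3ip, Tex15, Mns1 and Tex101. None of the crossover genes and none of the break formation genes was among them. Neighbours in this order mostly could not be separated: for 29 of 31 neighbouring pairs the ranges over the 4 libraries overlapped, and the 2 clear steps were those between Syce1 and Psmc3ip and between Tex101 and Brca1. Together the 32 genes took 0.313% of the reads on average.

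**Figure D1:**
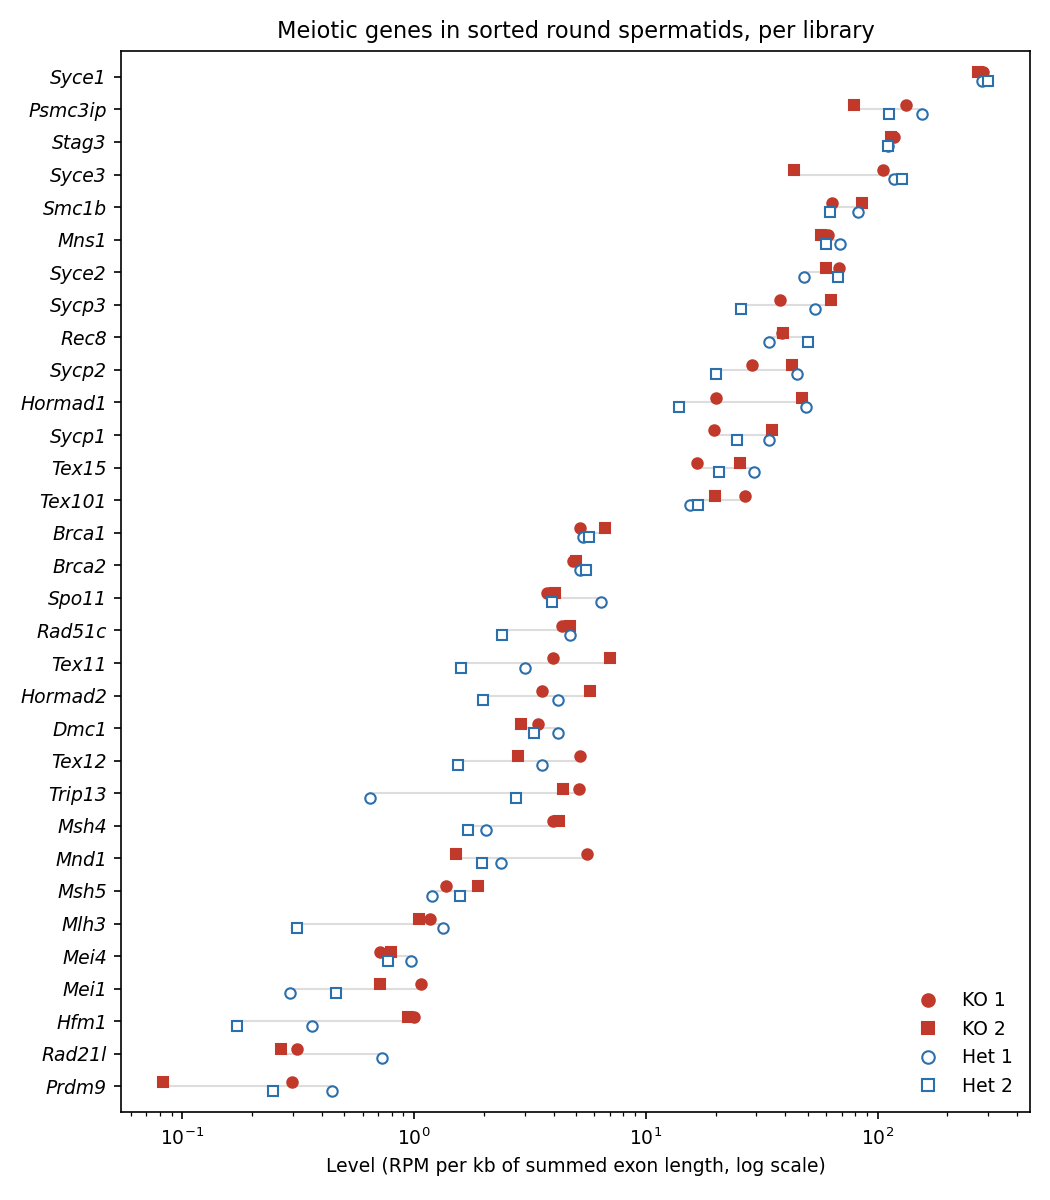
Level of each of the 32 genes in each library, in RPM per kb of summed exon length on a log scale, with KO-labelled libraries as filled red and heterozygous libraries as open blue symbols (circle library 1, square library 2). Genes are ordered by their mean, grey lines span the libraries, and a value of 0 for Rad21l in heterozygous library 2 cannot be drawn; Syce1 is highest at 270.2 to 301 RPM per kb and Prdm9 lowest at 0.0824 to 0.442.

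Promoter sequences from RefSeq (GRCm38.p6, a window that lies mostly before the RefSeq start site) were found for 29 of the 32 genes, all but Spo11, Tex11 and Tex15. The letters TTCCCGC, the core of sites bound by E2F factors, among them E2F6, which keeps a number of meiotic genes silent in somatic cells, were searched on both strands. They occurred in the promoters of 10 of the 29 genes (34.5%), against 5.29% of all 27025 genes with a promoter in the table and 8.91% of the tested genes. The 10 are Brca2, Hormad1, Msh5, Prdm9, Rad51c, Smc1b, Stag3, Syce2, Sycp3 and Tex12, genes from every role class but Tex101 and Mns1. Forms of the MYB site (CAACTG with its variant CAACGG, then TAACTG with its variant TAACGG, both strands), read by the spermatocyte regulator MYBL1, occurred in 10 of 29 promoters (34.5%), against 31.1% of all genes, which is near the background. The cyclic AMP response element TGACGTCA, read by the spermatid regulator CREM, occurred in those of Brca2 and Rad51c (6.90% of the 29), against 2.03% of all genes and 3.43% of the tested genes. The searched motifs do not overlap one another in letters. The promoters of Stag3 and Smc1b are shown because these cohesin genes were among the most abundant members and hold the E2F core in the window, and those of Msh4 and Hfm1 because these crossover genes, described below, were separated between the genotypes and their windows do not hold these letters. Capitals mark TTCCCGC or its reverse complement, and the rest is in lower case, 5′ to 3′ on the strand of the gene. That of Stag3 lies at chr5:138280259-138280558 on the plus strand, of Smc1b at chr15:85131908-85132207, of Msh4 at chr3:153904842-153905141 and of Hfm1 at chr5:106925841-106926140, all 3 on the minus strand.
Stag3: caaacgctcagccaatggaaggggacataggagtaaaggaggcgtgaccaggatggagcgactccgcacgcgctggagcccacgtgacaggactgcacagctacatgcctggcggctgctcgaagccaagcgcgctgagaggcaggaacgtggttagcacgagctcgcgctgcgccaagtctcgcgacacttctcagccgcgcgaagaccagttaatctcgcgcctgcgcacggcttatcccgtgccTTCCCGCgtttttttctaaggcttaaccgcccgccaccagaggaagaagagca
Smc1b: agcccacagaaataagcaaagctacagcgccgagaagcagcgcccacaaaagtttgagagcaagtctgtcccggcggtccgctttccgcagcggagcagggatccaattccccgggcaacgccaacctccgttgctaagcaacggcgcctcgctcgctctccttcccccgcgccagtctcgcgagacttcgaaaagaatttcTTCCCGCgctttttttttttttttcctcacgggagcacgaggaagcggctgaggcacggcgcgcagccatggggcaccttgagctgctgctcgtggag
Msh4: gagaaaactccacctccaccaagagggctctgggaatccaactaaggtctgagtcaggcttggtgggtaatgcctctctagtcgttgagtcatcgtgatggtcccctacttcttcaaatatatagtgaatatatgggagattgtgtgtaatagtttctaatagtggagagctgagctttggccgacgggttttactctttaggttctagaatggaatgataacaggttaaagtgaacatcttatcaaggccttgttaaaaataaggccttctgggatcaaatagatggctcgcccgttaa
Hfm1: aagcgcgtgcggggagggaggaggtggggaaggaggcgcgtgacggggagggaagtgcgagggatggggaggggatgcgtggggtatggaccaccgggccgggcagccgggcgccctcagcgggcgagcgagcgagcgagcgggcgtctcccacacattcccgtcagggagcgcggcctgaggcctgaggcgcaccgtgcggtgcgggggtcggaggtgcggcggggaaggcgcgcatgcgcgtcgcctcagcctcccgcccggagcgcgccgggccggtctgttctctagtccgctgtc
The core begins 3 bases before the RefSeq start site in Stag3 and 48 bases before it in Smc1b. The gene spans printed below come from the deposited table, which starts Stag3, Msh4 and Hfm1 farther upstream than RefSeq does. The windows of these 3 genes therefore lie inside their printed spans, and sequence before the printed starts was not searched. A match is a description of the letters and was not tied to binding.

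The comparison asked whether these transcripts differ between round spermatids labelled Wfdc15a-/- and heterozygous ones. The genotypes overlapped for every tested synaptonemal complex gene except Syce3 and every tested cohesin gene except Stag3. Higher in both KO-labelled libraries than in both heterozygous ones lay Msh4, Hfm1 and Tex11 of the 5 crossover genes, Trip13, Mei1, Stag3 and Tex101. These 7 are 22.6% of the tested members, near the 23.5% of all tested genes that lay higher in that way. The role classes, crossover genes among them, were drawn up with earlier results of these data known. Of the 31 genes that reached 1 RPM in at least 2 libraries, 0 passed limma's adjusted p of 0.05, as did 0 of all 15888 tested genes (0%). The smallest adjusted p among the 31 was 0.470, for Msh4. With no adjustment, p lay under 0.05 for 4 genes higher in KO-labelled libraries (12.9% of the 31, where 6.21% of all tested genes were called) and 0 lower (1.87% of all tested genes). Voom weights on the recovered reads also gave 0 passing members. They left 6 at an unadjusted p under 0.05, 5 of them higher and Syce3 lower, where 12.3% of all tested genes were called in either direction. Both KO-labelled libraries lay above both heterozygous libraries for 7 members (22.6%, against 23.5% of all tested genes) and below both for 2 (6.45%, against 15.0%). That split depended on the scaling: it was 6 above and 7 below after median-ratio scaling, where 20.1% and 19.0% of all tested genes lay above and below, and 7 above and 6 below after quantile normalization, with 18.4% and 19.6%. At an unadjusted p under 0.05, Syce3 was 1 lower member beside 4 higher ones after median-ratio scaling. A log2 difference of 1 or more in size was reached by 5 higher members (Trip13, Hfm1, Tex11, Msh4 and Mei1), where 12.7% of all tested genes were that much higher, and by 1 lower member, Prdm9, where 3.01% were that much lower. The median log2 difference was 0.16 over the 31 members and 0.068 over all tested genes.

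**Figure D2:**
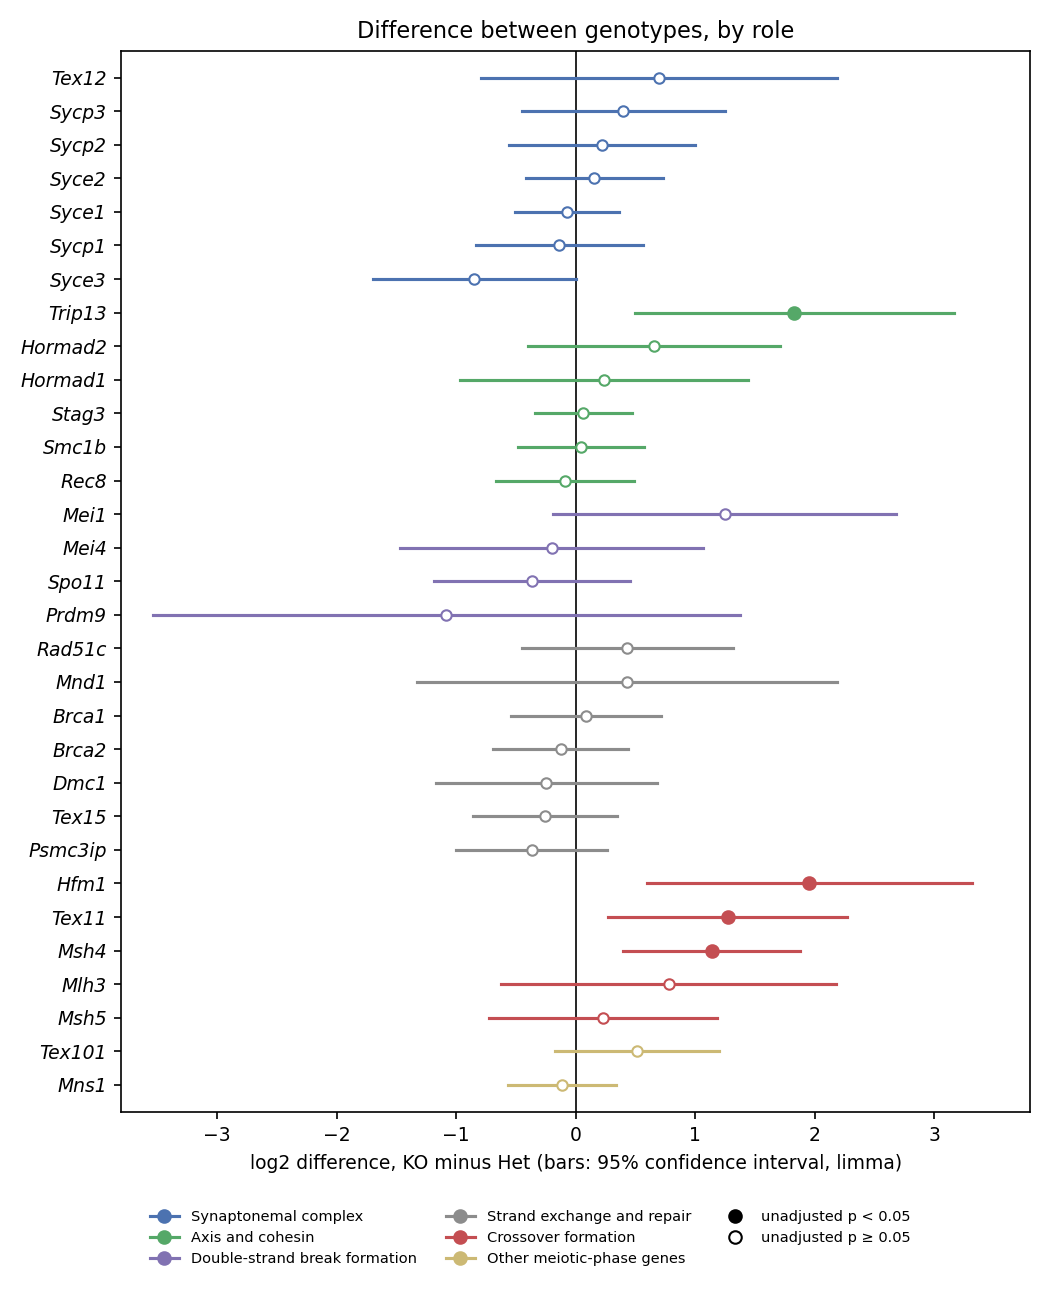
The log2 difference, KO-labelled minus heterozygous, of the 31 tested members with its 95% confidence interval from limma, grouped by role; filled points have an unadjusted p under 0.05. The 4 filled points (Trip13, Hfm1, Tex11 and Msh4) lie between 1.14 and 1.95, and 0 of the 31 passed after adjustment over all tested genes.

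In bulk samples, fewer cells of a type and less RNA per cell cannot be told apart. Which library was left out mattered for the count of 4. Without KO-labelled library 2 it was 1 gene (Trip13), where 4.05% of all tested genes were called in either direction, and without heterozygous library 1 it was 10, where 13.0% were. Without heterozygous library 1 the log2 differences of Hfm1 and Tex11 were 2.49 and 1.73, and without heterozygous library 2 that of Trip13 was 2.87. A fit with 1 library in a group draws its spread only from the group with 2. It assumes that the lone library varies alike, so counts and calls from such fits rest on that assumption.

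The synaptonemal complex genes encode the zipper between homologues. Over 7 genes the median log2 difference was 0.16 (-0.13 without heterozygous library 2 and -0.035 without KO-labelled library 2), with 0 at an unadjusted p under 0.05, and their summed level was 900.4 and 999.7 RPM in the KO-labelled libraries, against 1031 and 884 RPM in the heterozygous libraries. Syce1 was at 414 and 394 RPM in the KO-labelled libraries, against 410.1 and 439 RPM in the heterozygous libraries, so the 4 values lay within 1.11-fold of one another and the groups overlapped. Sycp1, the transverse filament gene, was at 70.2 and 125 RPM in KO-labelled and 121 and 87.5 RPM in heterozygous libraries. Sycp2, an axial element gene, was at 171 and 256 RPM in KO-labelled and 268 and 120.3 RPM in heterozygous libraries. In both of these genes KO-labelled library 2 and heterozygous library 1 were the high ones and the groups overlapped. Sycp3, its partner in the axial element, was at 48.1 and 79.8 RPM in KO-labelled and 67.9 and 32.6 RPM in heterozygous libraries, with the same libraries high. The span of Sycp3 overlaps that of Chpt1 on the other strand. The protocol keeps no strand, so reads from sequence that both genes share cannot be told apart. Whether their exons overlap was not checked. Chpt1 was at 71.3 and 113 RPM in KO-labelled and 109 and 63.2 RPM in heterozygous libraries.

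Syce3, a small central element gene, was the member with the clearest lower value. It was at 58.1 and 24.1 RPM in the KO-labelled libraries, against 64.8 and 70.1 RPM in the heterozygous libraries. Both KO-labelled values were the lower ones, but KO-labelled library 2 alone stood far below the other 3. The log2 difference was -0.85 (SE 0.39, limma adjusted p = 0.616, 95% confidence interval -1.70 to 0.0035), and it was -0.21 without KO-labelled library 2. Syce2, another central element gene, was at 134 and 118 RPM in KO-labelled and 95.1 and 133 RPM in heterozygous libraries, with heterozygous library 1 lowest. Tex12, which forms a complex with the SYCE2 protein, was at 5.29 and 2.84 RPM in KO-labelled and 3.64 and 1.57 RPM in heterozygous libraries, on between 21 and 112 reads. Syce2 and Gcdh overlap on opposite strands, and Gcdh was at 34.3 to 40.0 RPM in KO-labelled and 27.7 to 40.0 RPM in heterozygous libraries.

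Axis and cohesin genes had a median log2 difference of 0.15 over 6 tested genes, with 1 higher at an unadjusted p under 0.05. The median was 0.56 without KO-labelled library 1, -0.0030 without KO-labelled library 2, 0.52 without heterozygous library 1 and 0.088 without heterozygous library 2. Stag3 (chromosome 5 of mm10, 138280240 to 138312393, plus strand) was the steadiest member, at 676 and 657 RPM in the KO-labelled libraries, against 638 and 636 RPM in the heterozygous libraries. The groups did not overlap, but the log2 difference was 0.064 (SE 0.18, limma adjusted p = 0.955, 95% confidence interval -0.34 to 0.47). Smc1b, the meiotic SMC subunit of cohesin, was at 258 and 346 RPM in KO-labelled and 332 and 252 RPM in heterozygous libraries. Rec8, the kleisin subunit that is cleaved at the meiotic divisions, was at 114 and 114 RPM in KO-labelled and 100.1 and 147 RPM in heterozygous libraries, and the KO-labelled values lay between the heterozygous ones. The other meiotic kleisin, Rad21l, did not reach 1 RPM in 2 libraries and was not tested. It had 11 and 5 reads in the KO-labelled libraries, against 7 and 0 reads in the heterozygous libraries, and a count of 0 in heterozygous library 2 allows up to 0.0886 RPM (3 reads, counting error only).

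Hormad1 and Hormad2 encode HORMA-domain proteins that mark axes not yet synapsed. Hormad1 was at 34.7 and 81.8 RPM in KO-labelled and 84.9 and 24.1 RPM in heterozygous libraries. Within each genotype 1 library stood more than 2-fold above the other, KO-labelled library 2 and heterozygous library 1, and the groups overlapped. Hormad2 was at 9.74 and 15.7 RPM in KO-labelled and 11.4 and 5.41 RPM in heterozygous libraries, again with heterozygous library 2 lowest.

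Trip13 (chromosome 13, 73912462 to 73937767, minus strand) encodes the ATPase that strips HORMA-domain proteins from synapsed axes. It was at 17.9 and 15.2 RPM in the KO-labelled libraries, against 2.25 and 9.54 RPM in the heterozygous libraries. The groups did not overlap, and heterozygous library 1 was far lower than the rest, on 13 reads. The log2 difference was 1.83 (SE 0.61, limma adjusted p = 0.544, 95% confidence interval 0.49 to 3.17). It was 0.79 without heterozygous library 1 and 2.87 without heterozygous library 2. Trip13 passed with no filter on low values (limma adjusted p = 0.0332), where 180 of all genes passed.

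Break placement and cutting is the role of 4 tested members, all of which averaged below 10 RPM per kb. Over the 4 that were tested, the median log2 difference was -0.28, with 0 at an unadjusted p under 0.05. Spo11, which encodes the enzyme that cuts, was at 14.7 and 15.9 RPM in KO-labelled and 25.1 and 15.4 RPM in heterozygous libraries, with heterozygous library 1 highest and the other 3 close together. Prdm9 was at 1.28 and 0.355 RPM in KO-labelled and 1.91 and 1.06 RPM in heterozygous libraries, on between 4 and 36 reads, and the groups overlapped. Mei4, needed for break formation, was at 2.93 and 3.28 RPM in KO-labelled and 3.98 and 3.19 RPM in heterozygous libraries, and all 4 values lay within 1.36-fold of one another. Mei1, also needed for break formation, was at 5.06 and 3.37 RPM in KO-labelled and 1.39 and 2.19 RPM in heterozygous libraries. Both KO-labelled values of Mei1 lay above both heterozygous ones, on 107 and 38 against 8 and 74 reads, with a log2 difference of 1.25 (SE 0.65, limma adjusted p = 0.638). Rec114, a partner of the MEI4 protein listed under its older symbol, was at 15.3 and 18.3 RPM in KO-labelled and 14.2 and 13.5 RPM in heterozygous libraries, and overlaps Nptn on the other strand, which was at 79.0 to 94.4 RPM.

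Strand exchange and repair genes had a median log2 difference of -0.13 over 7 genes, with 0 at an unadjusted p under 0.05. Dmc1, the recombinase made in meiosis, was at 8.32 and 7.01 RPM in KO-labelled and 10.2 and 8.03 RPM in heterozygous libraries, and the groups overlapped. The genes of its accessory pair were far apart in level. Psmc3ip was at 241 and 144 RPM in KO-labelled and 283 and 203 RPM in heterozygous libraries, whereas Mnd1 was at 4.87 and 1.33 RPM and 2.08 and 1.71 RPM. Per kb of exon, the level over the 4 libraries averaged 119.8 RPM for Psmc3ip and 2.85 RPM for Mnd1. KO-labelled library 1 held the highest Mnd1 value and KO-labelled library 2 the lowest. Psmc3ip overlaps Mlx on the other strand, which was at 6.76 to 9.76 RPM.

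Brca2, needed for strand exchange in break repair, was at 66.3 and 68.2 RPM in the KO-labelled libraries, against 71.2 and 75.6 RPM in the heterozygous libraries. Both KO-labelled values were lower, but the log2 difference was -0.13 (SE 0.26, limma adjusted p = 0.932). Brca1, a ubiquitin ligase gene of break repair, was at 44.2 and 57.0 RPM in KO-labelled and 45.9 and 48.7 RPM in heterozygous libraries. Tex15, needed for meiotic break repair and for silencing of transposons, was at 160.1 and 244 RPM in KO-labelled and 281 and 199 RPM in heterozygous libraries, and Rad51c, a gene of recombinational repair, at 19.0 and 20.7 RPM and 20.6 and 10.5 RPM. Both overlapped between the genotypes, with KO-labelled library 1 lowest for Tex15 and heterozygous library 2 lowest for Rad51c. Meiob, a single-strand DNA-binding protein gene listed under its older symbol, was at 5.48 and 15.8 RPM in KO-labelled and 10.4 and 7.36 RPM in heterozygous libraries, with both KO-labelled values outside the heterozygous range, 1 on either side.

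Crossover genes were the class with the highest median log2 difference, 1.14 over 5 genes, and their summed level was 65.0 and 79.2 RPM in the KO-labelled libraries, against 44.0 and 29.8 RPM in the heterozygous libraries. The role classes were drawn up with earlier results of these data known. Of the 5 crossover genes, 3 were higher at an unadjusted p under 0.05 (6.21% of all tested genes) and 0 passed the adjusted threshold. Without KO-labelled library 2 none of the 3 kept an unadjusted p under 0.05, and with no variance trend Msh4 and Hfm1 kept it and Tex11 did not. Msh4 (chromosome 3, 153857147 to 153906138, minus strand), which encodes a subunit of the clamp that stabilises joint molecules, was at 27.4 and 29.1 RPM in the KO-labelled libraries, against 14.0 and 11.7 RPM in the heterozygous libraries. The groups were well apart and replicates of a genotype close together, on 580 and 328 against 81 and 397 reads. The fold was 2.19 and the log2 difference 1.14 (SE 0.33, limma adjusted p = 0.470, 95% confidence interval 0.40 to 1.88). Msh5, which encodes the partner subunit of the clamp, was at 7.61 and 10.4 RPM in KO-labelled and 6.58 and 8.74 RPM in heterozygous libraries, and its groups overlapped (log2 difference 0.23, 95% confidence interval -0.72 to 1.18).

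Hfm1 (chromosome 5, 106840192 to 106926321, minus strand), a helicase gene, was at 6.66 and 6.30 RPM in the KO-labelled libraries, against 2.42 and 1.15 RPM in the heterozygous libraries. Its 14 and 39 reads in the heterozygous libraries, beside 141 and 71 in the KO-labelled ones, set its precision. The fold was 3.62 and the log2 difference 1.95 (SE 0.62, limma adjusted p = 0.528). That difference was 2.49 without heterozygous library 1 and 1.42 without heterozygous library 2. Tex11 (chromosome X, 100838648 to 101059667, minus strand), needed for synapsis and crossover formation, was at 14.5 and 25.5 RPM in the KO-labelled libraries, against 10.9 and 5.79 RPM in the heterozygous libraries. The log2 difference was 1.27 (SE 0.45, limma adjusted p = 0.565). It was 1.73 without heterozygous library 1, 0.81 without heterozygous library 2 and 0.86 without KO-labelled library 2. Mlh3, the endonuclease subunit that resolves crossovers, was at 8.84 and 7.90 RPM in KO-labelled and 10.04 and 2.36 RPM in heterozygous libraries, so the heterozygous libraries lay on either side of the KO-labelled ones.

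**Figure D3:**
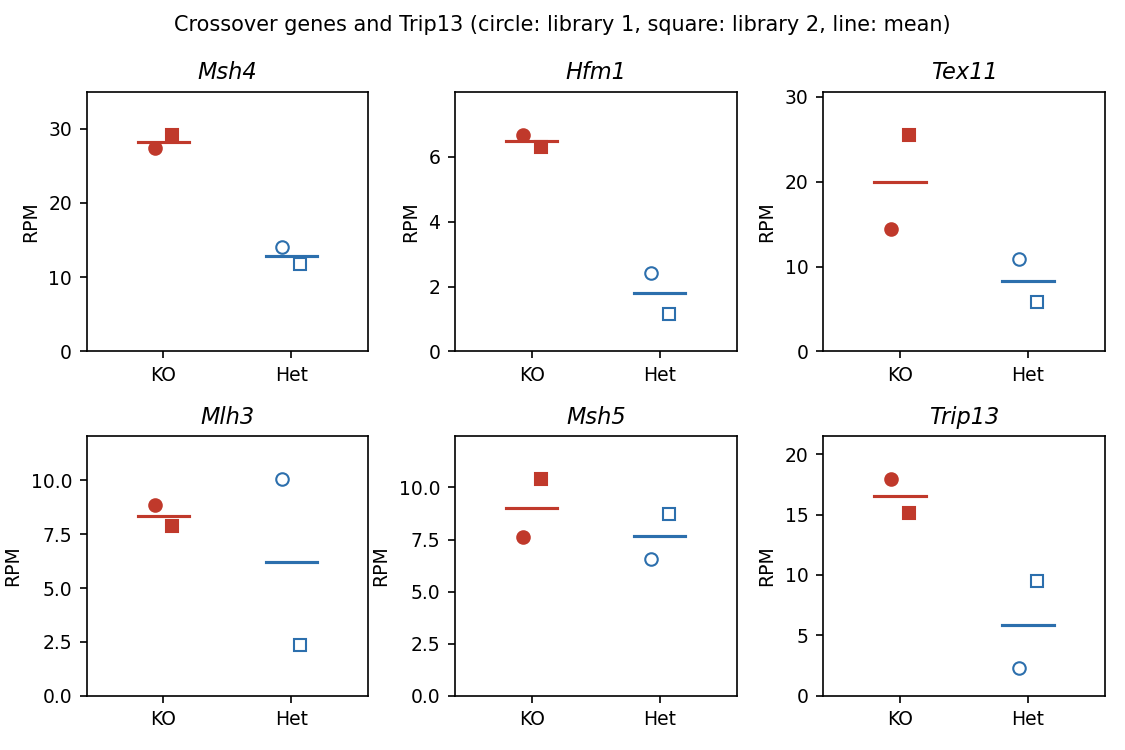
RPM of the 5 crossover genes and Trip13 in each library, KO-labelled (filled red) left of heterozygous (open blue), with circles for library 1, squares for library 2 and lines at group means; each axis starts at 0. Msh4, Hfm1, Tex11 and Trip13 do not overlap between genotypes, while Mlh3 and Msh5 do.

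Tex101 and Mns1 were listed with the meiotic genes but encode no recombination or synapsis protein. Tex101, a glycoprotein gene of the germ cell surface, was at 44.4 and 32.8 RPM in the KO-labelled libraries, against 25.8 and 27.8 RPM in the heterozygous libraries. The groups did not overlap, with a log2 difference of 0.51 (SE 0.31, limma adjusted p = 0.688). Mns1, which encodes a coiled-coil protein of the sperm flagellum, was at 328 and 307 RPM in KO-labelled and 368 and 320.4 RPM in heterozygous libraries, with heterozygous library 1 highest. Mns1 overlaps Tex9 on the other strand, which was at 90.2 to 97.5 RPM in KO-labelled and 99.4 to 123 RPM in heterozygous libraries.

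Differences between libraries of 1 genotype were as large as or larger than those between genotypes for most members. The size of the genotype difference exceeded the larger within-genotype difference for 7 of 31 members (22.6%), Hfm1, Msh4, Tex11, Mei1, Tex101, Brca2 and Stag3, against 25.4% of all tested genes. The median within-genotype difference was 0.71 on the log2 scale for members and 0.67 for all tested genes. Heterozygous library 1 lay above heterozygous library 2 for 21 of 31 members (67.7%), against 56.0% of all tested genes, and KO-labelled library 2 above KO-labelled library 1 for 16 (51.6%), against 45.4%. Hormad1, Mlh3, Trip13, Prdm9 and Mnd1 had the widest spread within a genotype. The size of a difference went with level. The 14 members at 10 RPM per kb or more had log2 differences between -0.85 and 0.51, with 2 of 14 at 0.5 or more in size, against 12.7% of the 4278 tested genes at that level. Of the 17 tested members below that level, 9 reached that size, against 47.1% of the 9740 tested genes there.

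**Figure D4:**
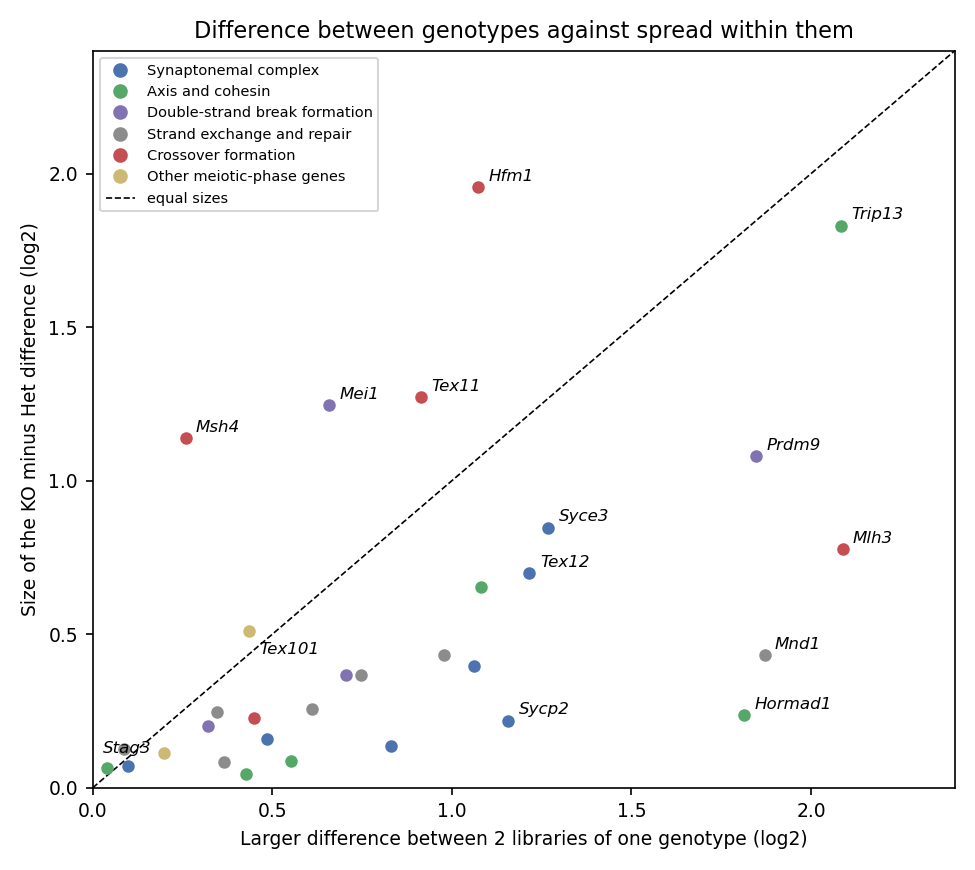
Size of the log2 difference between genotypes (vertical) against the larger of the log2 differences between the 2 libraries of a genotype (horizontal), for the 31 tested members coloured by role; on the dashed line both are equal. The 7 members above the line include Hfm1, Msh4, Mei1 and Tex11, and Mlh3, Trip13, Mnd1, Prdm9 and Hormad1 lie farthest to the right.

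Other genes of meiosis were listed as 72 symbols, of which 68 were matched (17 by an older symbol at the same place). The list is wider than recombination and holds, among others, Mael, Tdrd1, Meioc and Cdk2. Its genes were counted the same way. Of 65 tested, 8 were higher at an unadjusted p under 0.05 (12.3%, beside 6.21% of all tested genes), 0 were lower and 0 passed the adjusted threshold. Both KO-labelled libraries lay above both heterozygous ones for 21 (32.3%, against 23.5% of all tested genes) and below both for 6 (9.23%, against 15.0%). The median log2 difference was 0.21, against 0.068 for all tested genes. The smallest p belonged to Rad21, the cohesin subunit of all dividing cells, at 84.7 and 69.9 RPM in KO-labelled and 27.4 and 42.8 RPM in heterozygous libraries (log2 difference 1.17, SE 0.31, limma adjusted p = 0.443). Rad51d and Xrcc2, genes of recombinational repair, had log2 differences of 1.62 and 2.07, and Top3a, the topoisomerase that dissolves joint molecules, of 1.49. In the other direction Chek1, a checkpoint kinase gene, was at 23.8 and 39.0 RPM in KO-labelled and 43.8 and 39.6 RPM in heterozygous libraries, and Iho1, a break formation gene, at 16.1 and 13.3 RPM in KO-labelled and 25.6 and 16.5 RPM in heterozygous libraries. Ccnb1ip1, a ubiquitin ligase gene of crossover maturation also known as HEI10, was at 1.04 and 0.355 RPM in KO-labelled and 1.91 and 1.42 RPM in heterozygous libraries. Mus81 was at 27.6 and 26.7 RPM in KO-labelled and 31.7 and 40.2 RPM in heterozygous libraries. Ccnb1ip1 and Mus81 thus lay lower in both KO-labelled libraries, the direction opposite to Msh4, Hfm1 and Tex11.

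Markers of other cells stood beside these values as follows. The 18 spermatocyte markers were read in every library, with a median log2 difference of 0.042. They summed to 14835 and 13869.7 RPM in the KO-labelled libraries, against 15039 and 14332 RPM in the heterozygous libraries. Ldhc made up most of that sum. Without it the list summed to 4162 and 4517 RPM in KO-labelled and 4643 and 4050 RPM in heterozygous libraries. Adam3 and then Hspa2 had the highest levels in that rest, Adam3 at 1418 and 1780 RPM in KO-labelled and 1642 and 1544 RPM in heterozygous libraries. The sums therefore follow the most abundant markers and say little about the lower ones. Whether these reads came from spermatocytes or from the spermatids themselves was not tested. Both KO-labelled libraries lay above both heterozygous ones for 5 of the 18 (27.8%, against 23.5% of all tested genes). For 2 they lay below both (11.1%, against 15.0%). At an unadjusted p under 0.05, 2 of the 18 were higher (11.1%, against 6.21% of all tested genes), Cdk1 and Piwil1. Cdk1, the mitotic and meiotic kinase, was at 35.4 and 34.2 RPM in KO-labelled and 19.6 and 17.8 RPM in heterozygous libraries. Piwil1, a piRNA-binding protein gene, was at 51.1 and 63.7 RPM in KO-labelled and 42.1 and 24.2 RPM in heterozygous libraries. The 16 spermatogonial markers summed to 286 and 244 RPM in the KO-labelled libraries, against 311 and 295 RPM in the heterozygous libraries. Even so, over 13 tested genes the median log2 difference was 1.03 and 11 were higher, as were 8906 of all 15888 tested genes. Dmrtb1, a spermatogonial transcription factor gene, made up most of the sum, at 182 and 157 RPM in KO-labelled and 242 and 236 RPM in heterozygous libraries. Without it the list summed to 104 and 87.5 RPM in the KO-labelled libraries, against 68.4 and 59.6 RPM in the heterozygous libraries. For 14 of 15 tested macrophage markers (93.3%, against 23.5% of all tested genes), both KO-labelled libraries lay above both heterozygous ones. The 16 listed summed to 421 and 137 RPM in KO-labelled libraries, against 42.1 and 40.9 RPM in heterozygous libraries, where Tyrobp had 0 reads in both. The 9 Leydig markers summed to 44.0 and 21.8 RPM in KO-labelled libraries, against 9.35 and 3.78 RPM in heterozygous libraries, where Hsd3b6 had 0 reads in both. The 15 Sertoli markers summed to 58.1 and 65.9 RPM in KO-labelled libraries, against 48.0 and 60.7 RPM in heterozygous libraries, and Amh had 0 reads in all 4 libraries. The 12 elongating spermatid markers summed to 4835 and 4468 RPM in the KO-labelled libraries, against 4468 and 8285 RPM in the heterozygous libraries, with heterozygous library 2 apart. Their median log2 difference was -0.55, and both KO-labelled libraries lay below both heterozygous ones for 6 of 12 (50%, against 15.0% of all tested genes). At an unadjusted p under 0.05, 5 were lower (41.7%, against 1.87% of all tested genes). The smallest p belonged to Tnp2, a transition protein gene, at 173 and 127 RPM in KO-labelled and 393 and 582 RPM in heterozygous libraries, and Prm1, a protamine gene, at 308 and 223 RPM in KO-labelled and 529 and 931 RPM in heterozygous libraries. Of the 12, 10 had a lower and 2 a higher log2 difference, Akap4 (0.20) and Oaz3 (0.099). Oaz3, the most abundant of the list, was at 1382 and 1289 RPM in KO-labelled and 926 and 1678 RPM in heterozygous libraries. The part of these cell types in the values of the meiotic genes was not tested.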

How the data were processed

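The authors deposited 1 table of log2 RPM values per gene, for 2 KO-labelled and 2 heterozygous libraries. Per the submitters' processing notes, the tools were HISAT2 2.1.0, FastQC 0.11.8 and Trim Galore 0.6.6, with the mm10 build; for the counting tool, a name was not given in the sources used here. Between 99.7% and 100.0% of values were whole reads (tolerance 0.01), with a gene of 0 reads listed at 0.9 of a read, so totals and reads were recovered. Tests covered the 15888 genes that reached 1 RPM in 2 or more libraries. They were run on the deposited log2 values with limma 3.58.1 in R 4.3.3, with group as the only term, a variance trend and Benjamini-Hochberg adjustment. The script was tested on simulated data. There 17.3% of log2 changes of 1 in size were recovered, 94.3% of those of 2 and 99.4% of those of 3. False calls numbered 26 over all simulated sets. The simulated spread was a set value, not fitted to these libraries. Intervals are limma's, and limits from 0 reads cover counting error only.

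Gene coordinates are those of the deposited table, exon lengths are from GENCODE M21, and promoters are from RefSeq (GRCm38.p6). The members and all gene lists were chosen with earlier results of these data known. Every member is named. From other lists, genes with the smallest p, with 0 reads or with the highest level are named. Also tried were median-ratio and quantile scaling, a pseudocount of 1 RPM, testing all genes, a minimum of 5 RPM, no variance trend, voom on recovered reads, 1 common lowest value, a replicate block, and leaving out each library.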

Additional observations from a re-analysis of the deposited data

How the results depend on the processing

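With 2 libraries in a group, leaving out 1 leaves a lone library whose spread is taken from the other group and assumed alike. Over all genes 0 passed as reported, against 1 with log2(RPM + 1), 180 with no filter, 66 with the replicate block and 0 to 558 with a library left out. Of the members 0 passed, against 1 with no filter (Trip13) and 0 to 2 with a library left out; those at an unadjusted p under 0.05 ranged from 1 to 10 with a library left out. Members above both heterozygous libraries ranged from 10 to 15, and those below both from 4 to 12, with a library left out. Fewer values need to be ordered there. The share over all tested genes was not computed for those fits, so these counts cannot be set against a background. Quantile normalization gave 6 below both and median-ratio scaling 7, where 19.6% and 19.0% of all tested genes lay below. The members' median ranged from -0.056 to 0.26 with a library left out. In the same fits the class medians ranged from -0.13 to 0.25 for synaptonemal complex genes, from -0.0030 to 0.56 for axis and cohesin genes, from -0.10 to -0.0061 for strand exchange genes, from 0.81 to 1.73 for crossover genes and from -0.54 to -0.027 for break formation genes, for which it was -0.48 after quantile normalization and -0.17 with voom. Of the other meiotic genes 1 passed with no filter and 0 to 2 with a library left out. The cause of these shifts was not tested. The labels do not say whether libraries of the same number share anything else. Deviations of KO-labelled library 1 and heterozygous library 1 correlated at -0.076, which with 2 libraries in a group cannot settle it. Under the replicate block 0 members passed and 5 had an unadjusted p under 0.05 (16.1%, against 7.40% of all tested genes). Depth limits Trip13, Hfm1, Mei1, Prdm9, Mnd1 and Rad21l, with under 15 reads in heterozygous library 1.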
